A study of Mus musculus with 5 samples.

Results

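Surfactant proteins and club cell secretory protein are the main secreted products of the alveolar and airway epithelium. The gene symbols Sftpa1, Sftpb, Sftpc, Sftpd and Scgb1a1 were looked up among the named features of a 2-colour array, and genes with values on at least 4 of 5 arrays were kept. Of the 5 genes, 4 qualified, each through 1 feature with a value on all 5 arrays, among 10081 genes and unnamed features measured in all. Sftpb matched no feature by symbol or gene identifier and was not analysed here. Every array compared amplified lung RNA of 1 bleomycin-treated 129svJ mouse with 1 common pool of amplified lung RNA from control mice of that inbred strain. Bleomycin is an antitumour antibiotic that breaks DNA and is used in mice to injure the lung and provoke fibrosis. The 5 bleomycin mice form a single group, and no control mouse was hybridised on its own. The sources used here do not state dose, route, time, age, sex or how many mice were pooled.

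Pulmonary surfactant is a film of phospholipid and protein that lowers surface tension in the alveolus. Type 2 alveolar cells make it, store it in lamellar bodies and secrete it. The hydrophobic proteins SP-B and SP-C organise and spread the lipid film, whereas SP-A and SP-D are collectins, soluble lectins with a collagen-like stalk that bind microbes and take part in surfactant turnover. Club cells of the conducting airways secrete the club cell secretory protein encoded by Scgb1a1, and also make SP-A, SP-B and SP-D. SP-C is the most specific to type 2 cells. The transcription factor NKX2-1 drives all of these genes in the lung.

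Of the genes analysed, Sftpa1 had the largest ratio, and its promoter is shown as the control region of the gene that the results turn on. RefSeq promoter sequences matched 2 of the 5 genes, Sftpa1 and Sftpb. The 250 bases before the annotated start of Sftpa1 lie at chr14:41131538-41131787 on the plus strand of GRCm38.p6. Capitals mark 1 match to the TATA box motif TATAAA and 6 matches to CAAG, the core of NKX2-1 sites, searched on both strands (CAAG or CTTG).
Sftpa1: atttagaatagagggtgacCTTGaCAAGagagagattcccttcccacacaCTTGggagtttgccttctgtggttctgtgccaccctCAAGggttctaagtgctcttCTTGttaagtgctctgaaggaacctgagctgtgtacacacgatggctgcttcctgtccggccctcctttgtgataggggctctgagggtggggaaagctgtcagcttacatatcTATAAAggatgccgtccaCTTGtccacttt
The TATAAA match ran from base −30 to base −25 relative to the start, and no match overlapped another. Among 32851 promoter windows of this length, 12.4% held TATAAA and 86.6% held CAAG on either strand, so a CAAG match is common. A match describes the letters only, and binding was not measured.

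The values are log ratios, taken as log2 because no source names the base, with each array centred on its median. Their direction is not settled. The titles name the bleomycin mouse before the pool, but no dyes are given, so a ratio of mouse to pool is only one reading. Under that reading the macrophage and leukocyte markers would be mostly lower in the bleomycin mice. Of 9 measured, 6 passed the limma test described below on the negative side and 0 on the positive side. Over all genes and unnamed features 23.9% passed below 0 and 25.8% above 0. In a stricter test, explained below, that counts the pool as 1 control mouse, 1 of the 9 passed, below 0. Values are therefore given by their side of 0 alone, and turning the ratio would turn every sign together. Array values compare a gene with itself in the pool and give no level, so the lung label could not be checked by the abundance of its markers. The arrays held between 11350 and 12083 of 17280 features, and their correlations across genes ran between 0.73 and 0.86.

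In the comparison of bleomycin-treated lung with the control pool, the 4 genes differed in the mean and spread of their ratios. This is a description by mouse. The sign-flip test between pairs of genes, given below, cannot reach 0.05 with so few arrays. Sftpa1 lay far above 0 in every mouse, and Scgb1a1 lay modestly above 0 in every mouse. Sftpd lay near 0 in 4 mice and higher in 1. Sftpc lay on both sides of 0 with a spread that few genes on the arrays matched. By limma's moderated test with Benjamini-Hochberg adjustment over all 10081 genes and unnamed features, Sftpa1 and Scgb1a1 passed an adjusted p of 0.05 and Sftpc and Sftpd did not. Over everything measured 49.6% passed, 25.8% above 0 and 23.9% below 0, so 2 of 4 is a share like the background. In whole lung RNA, a changed number of cells of a type and a changed amount of RNA per cell cannot be told apart.

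**Figure D1:**
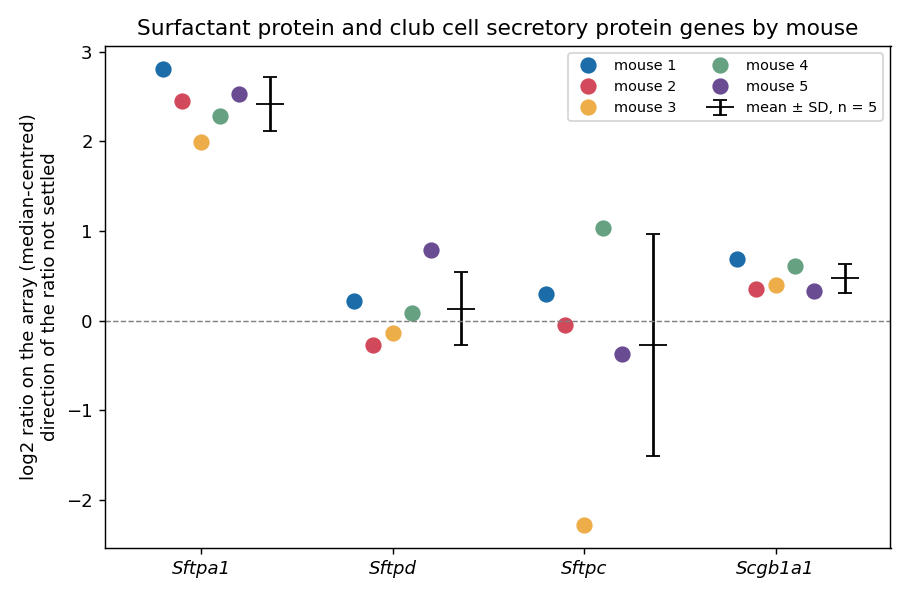
Log2 ratio of each gene on the array of each bleomycin mouse against the control pool (coloured points), with the mean and SD over the 5 mice (black). Sftpa1 lies between 1.995 and 2.81 in all mice and Scgb1a1 between 0.33 and 0.69, while Sftpc runs between −2.28 in mouse 3 and 1.03 in mouse 4.

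Sftpa1 encodes surfactant protein A, the abundant collectin of type 2 and club cells. Its log2 ratio was 2.81, 2.45, 1.995, 2.28 and 2.53 in mice 1 to 5. All mice were far from 0, and the highest and lowest differed by 0.81 on the log2 scale. The mean was 2.41 ± 0.30 (SD, n = 5 mice), a 5.32-fold difference with a 95% confidence interval of 2.15 to 2.67 on the log2 scale and an adjusted p of 2.33e-05 by limma. By distance from 0, which does not depend on the ratio's direction, 22 of the 10081 genes and unnamed features had a mean farther from 0, 4 of them on the same side as Sftpa1. On single arrays, between 24 genes (mouse 5) and 80 genes (mouse 3) lay farther from 0. The pool is shared by all arrays, so a chance departure of the pool enters every value. A stricter test treats the pool as 1 control mouse that varies like the bleomycin mice. It passed 5.09% of all genes and unnamed features, 2.98% above 0 and 2.11% below 0. Sftpa1 was the only one of the 4 genes among them (limma, adjusted p = 0.0103), with an interval of 1.77 to 3.05. It was also the only one of the 4 that both passed the first test and differed at least 2-fold, against 5.59% of all genes and unnamed features.

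Sftpd encodes surfactant protein D, the other lung collectin. Its log2 ratio was 0.22, −0.27, −0.14, 0.08 and 0.79 in mice 1 to 5. Mouse 5 stood above the others, by 0.82 over their median, and only 10 of 8210 genes with values on all arrays departed further upward in that mouse. The mean was 0.14 ± 0.41 (SD, n = 5), with a 95% interval of −0.21 to 0.48 and an adjusted p of 0.462 by limma. Without mouse 5 the mean turned to −0.027 and the SD was 0.22, against 0.41 with all mice. Sftpa1 and Sftpd lie near each other on mouse chromosome 14, and Sftpd was the nearest measured gene after Sftpa1 in RefSeq's order. Their log2 ratios nevertheless differed in every mouse, by 1.74 to 2.71, with a mean difference of 2.28 ± 0.39 (SD, n = 5).

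Sftpc encodes the precursor of surfactant protein C, a small hydrophobic peptide made by type 2 cells. Its log2 ratio was 0.30, −0.044, −2.28, 1.03 and −0.38 in mice 1 to 5. Mouse 3 was far below the others and mouse 4 was the highest. The range of 3.31 on the log2 scale corresponds to 9.91-fold between the arrays of these mice. Each mouse had 1 array and Sftpc 1 feature, so variation between mice cannot be told apart from error of an array or spot. The mean was −0.27 ± 1.24 (SD, n = 5), with a 95% interval of −1.26 to 0.72 and an adjusted p of 0.612 by limma. That interval spans differences of more than 2-fold on the negative side, so the test does not show that Sftpc was unchanged. Without mouse 3 the mean turned to 0.23 and the SD was 0.60.

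The spread of Sftpc between mice was 7.9 times the median SD of 0.16 over all genes, and 27 of the 10081 genes and unnamed features had a larger one. Of those 27, 10 were skeletal muscle markers and 1 belonged to the other epithelial, surfactant or secretory lists. In mouse 3, 17 genes and unnamed features had a lower ratio than Sftpc, and all 17 passed the test below 0 over the mice, which Sftpc did not. Among them Cox7b, Gpx3 and Capg were also lowest in mouse 3, at −3.035, −2.515 and −2.415. In the other mice these genes lay between −1.271 and −0.241. Set against the median of the other mice, Sftpc was 2.40 lower in mouse 3, and 1 of 8210 genes with 5 values departed further downward there. In mouse 4 it was 1.24 higher than the median of the others, and 24 genes departed further upward. Mouse 3 as a whole did not stand apart in this measure: 34 genes there were more than 1 log2 unit below the other mice and 49 more than 1 above, against 17 to 75 below and 4 to 51 above in the other mice.

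The other type 2 cell markers had median log2 ratios of 0.38, −0.22, 0.15, −0.14 and 0.11 in mice 1 to 5, over 6 genes, and mouse 3 was not the lowest. Among the lists described below, mouse 3 had the lowest median for the other secretory and club cell genes (0.31) and for type 1 (0.85), endothelial (0.79), ciliated (−0.25) and saposin or BRICHOS genes (0.043). It was not the lowest for the processing, lipid synthesis, transcription factor, collectin and broad epithelial lists. Sftpa1 was also lowest in mouse 3, at 1.995. Skeletal muscle markers, which vary widely between these samples, had medians of −3.71, −2.73, −0.17, −0.40 and −2.18 over 14 genes. Of these, 11 passed below 0 and 0 above, against 23.9% and 25.8% of all genes and unnamed features, and 0 passed the stricter test. They were closest to 0 in mice 3 and 4, where Sftpc was lowest and highest. Their part in the spread of Sftpc was not tested.

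Scgb1a1 encodes the small secretoglobin that club cells release into the airway lining. Its log2 ratio was 0.69, 0.36, 0.39, 0.61 and 0.33 in mice 1 to 5, above 0 in every mouse and with a narrow range. The mean was 0.47 ± 0.16 (SD, n = 5), a 1.39-fold difference with a 95% interval of 0.31 to 0.64 and an adjusted p of 0.00162 by limma. Its SD was 1.04 times the median over all genes. The call rests on a small difference. It was lost in the stricter test with the pool as 1 control mouse (limma, adjusted p = 0.172). It was also lost against a null of up to 1.2-fold (adjusted p = 0.0525), which 18.3% of all genes and unnamed features passed.

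**Figure D2:**
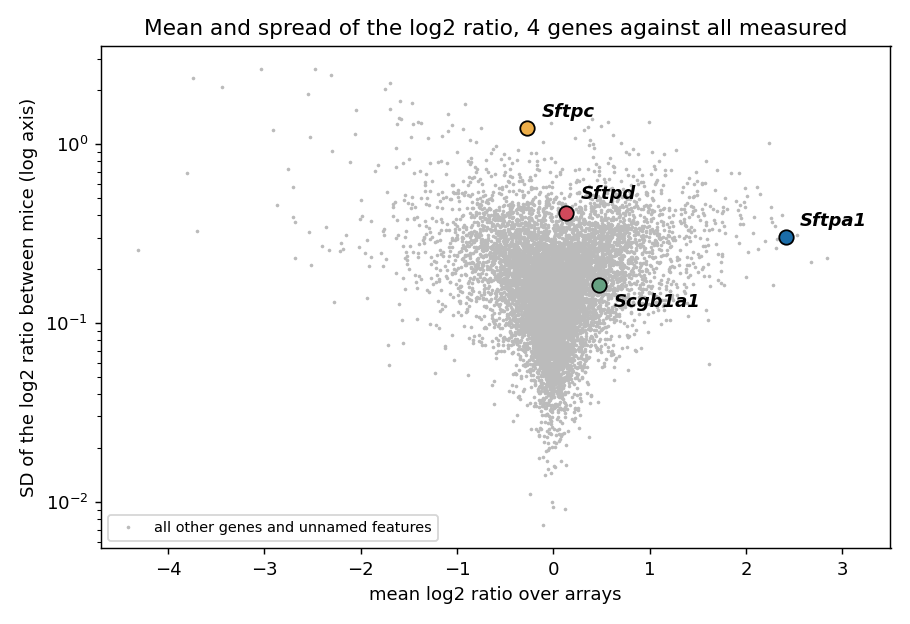
Mean log2 ratio over the arrays (horizontal axis) against its SD between mice (vertical axis, log scale) for 10081 genes and unnamed features (grey) and the 4 analysed genes (coloured). Sftpa1 lies at the right edge with an SD of 0.30, and Sftpc lies near the top with an SD of 1.24.

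Within arrays, 6 pairs of genes were compared. Sftpa1 exceeded Sftpc by 2.68 ± 1.08, Sftpd by 2.28 ± 0.39 and Scgb1a1 by 1.94 ± 0.28 on the log2 scale (SD, n = 5), in 5 of 5 mice each. These are differences between ratios, not between transcript levels. With 5 arrays the smallest p of the exact two-sided sign-flip test is 0.063, which all 3 pairs reached, and their p was 0.125 after Benjamini-Hochberg adjustment over the 6 pairs. Sftpc minus Sftpd averaged −0.41 ± 1.23 and lay above 0 in 3 of 5 mice (exact p = 0.625). Sftpc minus Scgb1a1 averaged −0.75 ± 1.15 and lay above 0 in 1 of 5 mice (exact p = 0.25), with a mean of −0.27 without mouse 3. Sftpd minus Scgb1a1 averaged −0.34 ± 0.45 and also lay above 0 in 1 of 5 mice (exact p = 0.125), with a mean of −0.54 without mouse 5. The order of the means was therefore Sftpa1, Scgb1a1, Sftpd and Sftpc, and the last 3 were not separated from each other beyond their spread.

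The genes most like each of the 4 were taken by the smallest root mean square difference in log2 ratio over the 5 arrays, among 7437 named genes with all values. For Sftpa1 these were Fmo1 (0.20), a flavin monooxygenase, Gpm6a (0.32), a membrane glycoprotein, and Fmo2 (0.36), the lung flavin monooxygenase. Their mean log2 ratios were 2.28 ± 0.16, 2.27 ± 0.37 and 2.30 ± 0.35 (SD, n = 5), so Gpm6a and Fmo2 varied more between mice than Sftpa1. For Scgb1a1 the closest were Lactb2 (0.035), Bcam (0.076) and Qrich1 (0.078), with means of 0.46, 0.48 and 0.51. For Sftpd they were the nuclear long noncoding RNA Neat1 (0.14), the Golgi tethering subunit Cog4 (0.15) and the exocyst subunit Exoc7 (0.17), all highest in mouse 5.

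The distances to the nearest genes were larger for Sftpc than for any other analysed gene. They were not scaled by spread, and Sftpc had the largest SD among the analysed genes, 1.24. Its nearest genes were Atp5b (0.55), the beta subunit of ATP synthase, Aldh2 (0.56), the mitochondrial aldehyde dehydrogenase, and Galt (0.56), an enzyme of galactose metabolism. Atp5b had log2 ratios of −0.040, −0.029, −2.02, 0.031 and 0.19 in mice 1 to 5. Aldh2 and Galt stood at −1.52 and −1.70 in mouse 3 and at 0.029 or above in the other mice. These genes share the low value in mouse 3, and none of them shows the high value of Sftpc in mouse 4.

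**Figure D3:**
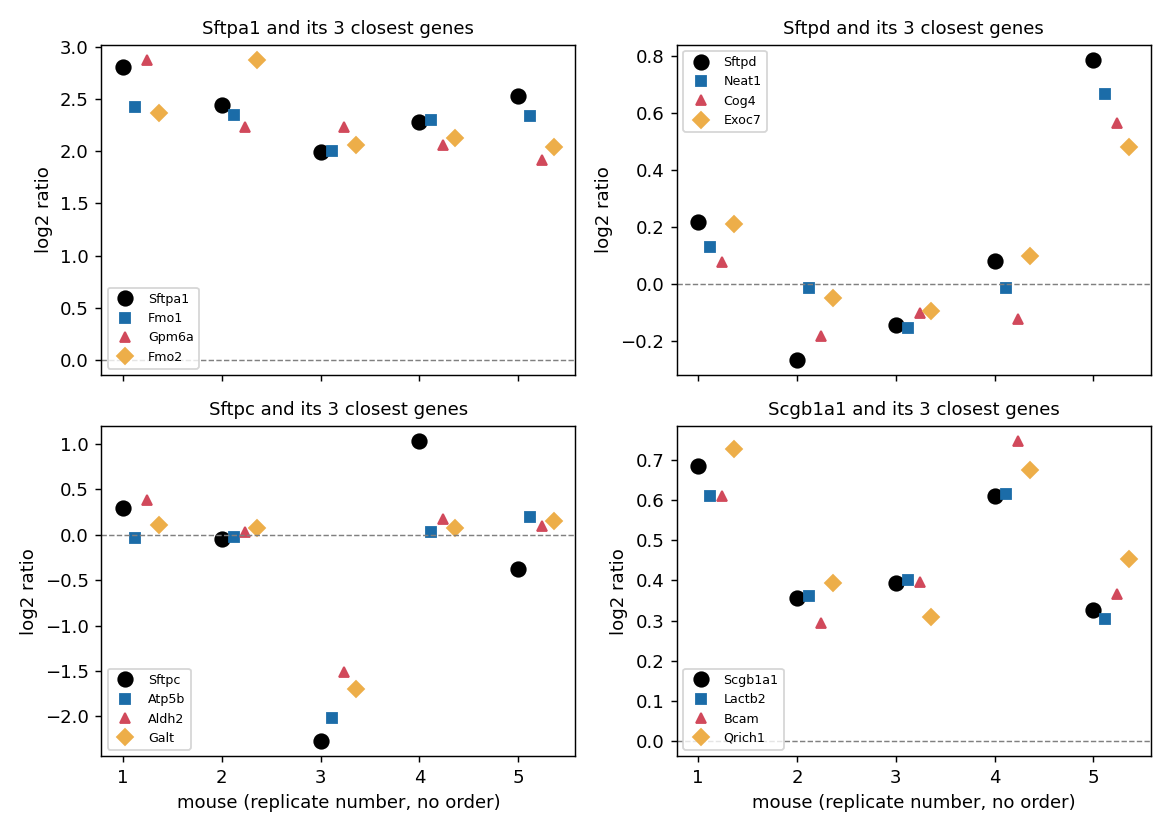
Log2 ratio by mouse of each analysed gene (black) and the 3 named genes with the smallest root mean square difference from it (coloured, shifted sideways for clarity). The genes closest to Sftpc share only its low value in mouse 3, where Atp5b stands at −2.02.

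Genes that act with the surfactant proteins were counted in lists chosen for their roles, and each count is to be read against the 49.6% of all genes and unnamed features that passed, 25.8% above 0 and 23.9% below 0. Of 11 measured genes for processing, storage and export of surfactant proteins, 4 lay above 0, 2 below 0 and 5 did not pass, a share of 54.5% that is near the background, with a median log2 ratio of 0.15, against a median of −0.0066 over all genes and unnamed features. Slc34a2, the phosphate transporter of the type 2 cell surface, stood at 2.18, 1.48, 1.38 and 2.17 in mice 1, 3, 4 and 5, without a value in mouse 2. Its mean was 1.80 ± 0.43 (SD, n = 4; limma, adjusted p = 0.000389), and it passed the stricter test too (adjusted p = 0.0488). Nedd4l, a ubiquitin ligase that sorts the SP-C precursor, stood at 0.49 ± 0.30 on 4 arrays. Pgc, a protease that processes SP-B, and Ap3d1, a subunit of the AP-3 sorting complex, stood at −0.34 ± 0.12 and −0.48 ± 0.22.

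Among the genes of the processing, storage and export list that did not pass were Abca3 and Napsa. Abca3, which loads lipid into lamellar bodies, had a mean of 0.25 ± 0.42 and lay between −0.21 and 0.71. The mean was 0.15 without mouse 1 and 0.14 without mouse 5. Napsa, the protease that matures SP-B, averaged 0.052 ± 0.20 over 2 features, which lay on either side of 0 at −0.14 and 0.25. Its mean turned to −0.0065 without mouse 1.

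The lipid synthesis genes that passed lay on the same side of 0 as Sftpa1. Of 14 measured genes for synthesis of surfactant lipid and its control, 6 lay above 0, 0 below 0 and 8 did not pass, a share of 42.9% past the test, with a median of 0.27. Gpam, which starts glycerolipid synthesis, lay between 1.17 and 1.61 in all mice, with a mean of 1.42 ± 0.18 (limma, adjusted p = 3e-05). Scd2, a fatty acid desaturase, stood at 1.43 ± 0.45, and its paralogue Scd1 at 1.79 ± 0.50. Fatty acid synthase, Fasn, lay between 1.27 and 1.69. In the stricter test, Fasn and Gpam passed (adjusted p = 0.012 and 0.0123), while Scd1 and Scd2 did not (adjusted p = 0.065 and 0.0889). Srebf1, a regulator of lipogenic genes, stood at 0.023 ± 0.11 and did not pass. Several of these enzymes also serve fat cells and other tissues.

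Of 15 measured transcription factors that act on surfactant and club cell genes, 9 lay above 0, 3 below 0 and 3 did not pass, a share of 80% past the test, with a median of 0.30. Foxa1, a forkhead factor of lung epithelium, stood at 1.47, 1.60, 1.095, 1.19 and 1.08 in mice 1 to 5, with a mean of 1.29 ± 0.23. Gata6 stood at 0.95 ± 0.10 on 4 arrays, without mouse 1. Both passed the stricter test as well (limma, adjusted p = 0.0252 for Foxa1 and 0.0238 for Gata6). Nfib, a nuclear factor I protein of lung maturation, stood at 0.66 ± 0.31, and the general factor Sp1 at −1.06 ± 0.29. Cebpa, which acts in type 2 cell maturation, had a mean of 0.17 ± 0.40 and did not pass. Its mean was 0.083 without mouse 3, 0.047 without mouse 4 and 0.28 without mouse 1. Nkx2-1 and Foxa2 were not analysed here.

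Of 17 other secretory and club cell genes, 12 lay above 0, 1 below 0 and 4 did not pass, a share of 76.5% past the test, with a median of 0.45. The related secretoglobins had smaller mean ratios than Scgb1a1. Scgb3a1, a secretoglobin of the upper airways, stood at 0.16, 0.20, 0.18, 0.38 and 0.009 in mice 1 to 5. Its mean of 0.18 ± 0.13 passed narrowly (limma, adjusted p = 0.0434), and the call was lost without mouse 1, 2, 3 or 4 (adjusted p from 0.0747 to 0.121). Scgb3a2, made by club cells, averaged 0.16 ± 0.26 and did not pass, and its mean was 0.074 without mouse 1. Metabolic enzymes in the list varied. Cbr2, carbonyl reductase 2, stood at 2.14 ± 0.52, and the cytochromes P450 Cyp2b10 and Cyp2f2 stood at 1.45 ± 0.42 and 1.34 ± 0.54. The glutathione transferase Gsta3 stood at 0.45 ± 0.36, and the aldehyde dehydrogenase Aldh3a1 averaged −0.25 ± 0.62 and did not pass, with −1.21 in mouse 2. The call below 0 was Reg3g, a secreted antibacterial lectin, at −0.68 ± 0.43. The stricter test passed 2 genes of the list, Fmo2 and Cbr2.

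Of 6 other type 2 cell markers, 2 lay above 0, 2 below 0 and 2 did not pass, a share of 66.7% past the test, with a median of 0.09. Egfl6, a secreted protein with EGF repeats, stood at 0.67 ± 0.24 and the calcium-binding protein S100g at 0.22 ± 0.13, whose call was lost without mouse 3, 4 or 5 (limma, adjusted p from 0.0534 to 0.0723). The lung chemokine Cxcl15 stood at −0.91 ± 0.26 and the chitinase-like protein Chil1 at −0.64 ± 0.35. The stricter test passed 0 genes of this list, and Cxcl15 missed it with an adjusted p of 0.0812 by limma. Sftpa1 and Cxcl15, both products of the alveolar epithelium, lay on opposite sides of 0 in every mouse.

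**Figure D4:**
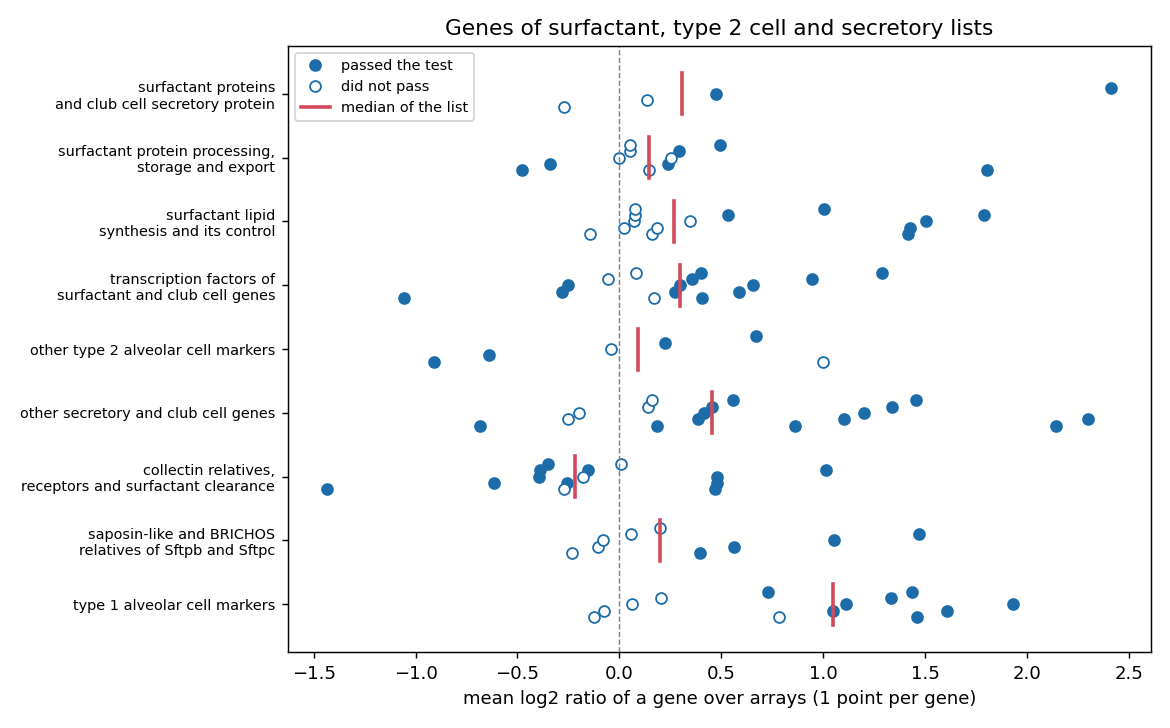
Mean log2 ratio of each measured gene in 9 lists (1 point per gene), filled where it passed the test and open where it did not, with the list's median (red bar). Secretory genes have a median of 0.45 and collectin relatives with clearance genes −0.22.

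Of 14 measured collectin relatives, receptors and genes of surfactant clearance, 4 lay above 0, 7 below 0 and 3 did not pass, a share of 78.6% past the test, with a median of −0.22. Spi1, the factor through which GM-CSF matures alveolar macrophages that clear surfactant, stood at −1.38, −1.202, −1.22, −1.16 and −2.21 in mice 1 to 5, with a mean of −1.43 ± 0.44. Colec11, a soluble collectin, stood at −0.62 ± 0.20, whereas Colec12, a scavenger receptor with a collectin domain, stood at 1.02 ± 0.40. Myo18a, an unconventional myosin that serves as a receptor for SP-A, stood at 0.48 ± 0.29. In the stricter test, 0 genes of this list passed by limma, against 11 of 14 in the first test.

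SP-B belongs to the saposin-like proteins, and the SP-C precursor carries a BRICHOS domain. Of 9 measured genes of the saposin pathway and the BRICHOS family, 4 lay above 0, 0 below 0 and 5 did not pass, a share of 44.4% past the test, with a median of 0.20. Itm2b, a membrane protein with a BRICHOS domain, stood at 1.37, 1.23, 0.043, 1.05 and 1.57 in mice 1 to 5, with a mean of 1.05 ± 0.59. Like Sftpc, it was lowest in mouse 3, and it lay between 1.05 and 1.57 in the other mice. Cnmd, the BRICHOS protein chondromodulin, stood at 0.40 ± 0.17. Prosaposin, Psap, stood at 0.56 ± 0.35 and acid ceramidase, Asah1, an enzyme that saposins assist, at 1.47 ± 0.21. The stricter test passed 1 gene of the list, Asah1 (limma, adjusted p = 0.0135).

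Markers of other cell types were counted in the same way, by the genes that passed the test on each side of 0. Over all genes and unnamed features, 25.8% passed above 0 and 23.9% below 0. Type 1 alveolar cell markers had 8 of 13 passing above 0, 0 below 0 and a median of 1.05. Endothelial markers had 8 of 8 passing above 0 with a median of 0.91. Broad epithelial markers had 2 of 9 passing above 0 and 3 below 0 with a median of −0.11. Ciliated cell markers had 2 of 5 passing above 0 and 1 below 0. Heart muscle markers had 4 of 6 passing above 0 and 0 below 0, and red cell markers had 1 of 2 passing above 0. In the stricter test, 2 type 1, 3 endothelial, 1 ciliated, 1 heart muscle and 0 red cell markers passed above 0. Of the broad epithelial markers, 1 passed it above 0 and 1 below 0. It passed 2.98% of all genes and unnamed features above 0 and 2.11% below 0. The part of changed cell mixture in the ratios of the surfactant and secretory genes was not tested.

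The nearest measured gene on each side of each locus was taken from RefSeq's gene order, which gave 8 genes other than the surfactant genes themselves. Of these, 7 lay within 3 steps of the locus in that order, with means between −0.22 and 0.30, and 3 of the 7 passed the test. The other, 4930503E14Rik, lay 98 steps from Sftpd and passed at 0.44 ± 0.22. Thus 4 of the 8 passed, against 49.6% of all genes and unnamed features, and 0 of the 8 passed the stricter test by limma. Dydc2, the nearest measured gene before Sftpa1, stood at 0.202 ± 0.14 on 4 arrays (limma, adjusted p = 0.062). The neighbours of Sftpc were Bmp1 and Reep4, with means of −0.030 ± 0.11 and 0.017 ± 0.17, and neither shared its low value in mouse 3. Beside Scgb1a1, Asrgl1 stood at −0.22 ± 0.14, a call lost without mouse 1, 3 or 4 (limma, adjusted p from 0.0563 to 0.0754). Ahnak averaged 0.047 over 2 features that passed on opposite sides of 0, at −0.701 and 1.17.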

How the data were processed

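The deposited table holds 1 log ratio per feature and array, taken as log2; the sources used here name neither the dyes, the log base nor the authors' normalization. Per the labels, channel 1 held a bleomycin mouse and channel 2 the control pool. The authors' deposited medians lay between 0.011 and 0.026, and every array was re-centred to a median of 0. Symbols are those of the platform annotation, updated or kept through gene identifiers with RefSeq's GRCm38.p6 table for 14445 of 17280 features. Features with values on at least 4 of 5 arrays were kept (10702 features) and those of 1 symbol averaged (10081 genes and unnamed features).

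limma 3.58.1 (R 4.3.3) tested each mean against 0 (intercept-only model, empirical Bayes, two-sided, Benjamini-Hochberg over all 10081), a procedure tested on simulated data. The simulated data had independent noise, few shifted genes and no error of a shared pool, so they do not test the call rate here. The pool counts as a constant, so the spread between control mice is left out, and dye bias does not cancel without a dye swap. Scanner signals were not used here, so the number of arrays limits the precision. Differences between genes within arrays were tested by exact sign-flip in Python 3.11.15.

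The genes and lists were chosen with earlier results of these data known. Named genes were the listed genes, up to 4 genes of each surfactant-related list farthest from 0 among those past the threshold, genes close in role (Napsa, Abca3, Cebpa, Scgb3a1 and Scgb3a2 were measured), the 3 genes most like each member and the nearest measured neighbours. Srebf1, Gsta3, Aldh3a1, Reg3g, Cox7b, Gpx3, Capg and the 2 features of Napsa and Ahnak were named after their values were seen. Alternatives changed centring, scaling, feature filters, combination of features, variance moderation, array weights, the treatment of the pool, the size of difference required, and left out each mouse in turn; then genes with at least 3 of the 4 remaining values were tested.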

Additional observations from a re-analysis of the deposited data

Results flagged for a closer look

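In 6 of 56 named genes examined, 1 mouse stood apart from the other 4 by a gap test that chance passes in about 1 in 20 groups. Atp5b at −2.02, Galt at −1.70 and Aldh2 at −1.52 were set apart by mouse 3, but these genes were chosen for their likeness to Sftpc, which has its own low value there. Cyp2f2 reached 2.27 in mouse 1, Egfl6 was lowest in mouse 2 at 0.24, and Spi1 was lowest in mouse 5 at −2.21. Sftpc itself was not set apart by this test, because mouse 4 widened its range.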

How the results depend on the processing

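Sftpa1 passed under all 17 alternatives, with means between 2.31 and 2.52. Scgb1a1 stayed above 0 at 0.42 to 0.51, and its mean of 0.47 missed the threshold with the pool counted as 1 control mouse and with a difference of at least 1.2-fold required. Sftpc and Sftpd passed under none. The count of all genes and unnamed features past the threshold, 5002, was 513 with the pool counted as 1 control mouse and 1847 with at least 1.2-fold required, and lay between 3866 and 5311 otherwise (4106 to 4616 when a mouse was left out). Over the lists together, 104 of 156 genes passed, but 19 with the pool counted as 1 control mouse. Leaving out each mouse gave means of −0.599 to 0.23 for Sftpc, −0.027 to 0.24 for Sftpd and −0.75 to 0.023 for Sftpc minus Sftpd. The same range was −0.51 to 0.038 for Atp5b, −0.305 to 0.17 for Aldh2, −0.36 to 0.102 for Galt, −0.011 to 0.19 for Neat1, −0.080 to 0.11 for Cog4, −0.0065 to 0.11 for Napsa, −0.034 to 0.069 for Reep4 and −0.044 to 0.24 for Ahnak. The 3 genes nearest to Sftpc turned without mouse 3. One feature of Napsa stood at −0.14 on its own. Ahnak stood at −0.701 by its feature with values on all 5 arrays, and Reep4 at −0.012 with array weights. The causes of these turns were not tested, apart from the samples and features left out. Of 882 values of the other 52 named genes under the alternatives, 808 kept their side of 0 and of the threshold, 58 lost the call, 2 gained it and 14 turned. Choosing another feature was not run, since each of the 4 genes has 1 feature. No pairing of bleomycin mice with control mice was possible because the arrays form 1 group. Only genes were compared in pairs, within arrays.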
